A study of Mus musculus with 72 samples.

Results

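The share of newly made mRNA was compared between the nucleus and the cytosol of mouse embryonic stem cells after 20 min of metabolic labeling. The cells were E14TG2a, an established embryonic stem cell line, kept in 2i + LIF medium, and all groups used here had 500 µM 4-thiouridine (4sU), a uridine analog that is built into RNA while it is made. Once alkylated, 4sU gives a C in the reads where the genome has T, and these T-to-C (T2C) mutations mark new RNA. Cells were separated by sequential detergent extraction into a cytosolic, a membrane and a nuclear fraction, and poly(A) RNA of each was sequenced. Each fraction had 4 replicate libraries at 20 min, and the fractions of a replicate came from the same culture. The new share of a gene is its count of T2C mutations divided by its count of T positions in exons and by the conversion rate of the library, given here in percent. Of 29097 genes in the tables, 9749 had a T count of 2000 or more in all 8 nuclear and cytosolic libraries of 20 min and were compared, and 9212 of them are protein-coding. Just inside this limit lay Sox21 with a lowest T count of 2000 and a nuclear share of 30.3% and a cytosolic one of 11.9%, and just outside it Vps9d1 with 1997 and shares of 4.67% and 1.36%. A T count of 20000 or more in all 8 libraries was reached by 3865 genes, and the genes named for extreme values were taken from these.

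An mRNA is transcribed, spliced and polyadenylated in the nucleus and leaves it through the nuclear pores. In the cytosol it is translated and later degraded, and mRNAs that encode secreted or membrane proteins are brought to the endoplasmic reticulum (ER) by the signal sequence of the nascent protein. Right after labeling starts, new molecules are in the nucleus, and the share in the cytosol depends on how soon they leave it and on how much older mRNA is already there. Immediate early and other regulatory mRNAs are known for fast turnover, while mRNAs of ribosomal proteins and of metabolic enzymes are known to be long-lived.

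Between 17826062 and 52975732 reads were counted on genes in the nuclear libraries and between 20474244 and 24142623 in the cytosolic ones. The median count of T2C mutations of a gene in a library was 78 in the nucleus and 20 in the cytosol. The conversion rate was between 2.58 and 3.56% in the nucleus and between 2.15 and 3.02% in the cytosol. The pluripotency markers Pou5f1, Nanog, Sox2 and Zfp42 were at 259 CPM (read counts scaled to equal library totals) or more in each whole-cell library, while Foxa2 of primitive endoderm and the fibroblast collagen Col3a1 were at 0.0874 CPM or less. The highest markers of these lists were Gata4 of primitive endoderm with up to 3.5 CPM and Thy1 of fibroblasts with up to 10.4 CPM. All 10 embryonic stem cell markers were expressed, and the summed level in whole cells was 2.6 to 7.21 CPM for 6 primitive endoderm markers, 2.81 to 11.8 CPM for the fibroblast markers and 1.43 to 2.84 CPM for 5 markers of 2-cell-like cells. Replicates 3 and 4 stood apart from replicates 1 and 2 in several measures. The 6 nuclear RNAs used to judge the fractions (Malat1, Neat1, Kcnq1ot1, Meg3, Tsix and Firre) summed to 2218 to 3588 CPM in the nuclear libraries, and in the cytosolic libraries to 707 and 642 CPM in replicates 1 and 2 and 112 and 223 CPM in replicates 3 and 4. Introns held 11.1 and 8.70% of the T positions of the cytosolic libraries in replicates 1 and 2, and 3.66 and 4.76% in replicates 3 and 4. Mitochondrially encoded mRNAs took 0.545 to 1.1% of reads in the nucleus, 0.0316 to 0.204% in the cytosol and 8.85 to 15.3% in the membrane fraction. The libraries are of bulk cells, so that a low share in all cells and a high share in few cells cannot be told apart.

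At 20 min the new share was higher in the nucleus for most genes, and for few genes was it higher in the cytosol. The median share over the 9749 genes was 4.16, 5.55, 11.7 and 9.21% in the nuclear libraries of replicates 1 to 4, and 2.03, 1.94, 2.23 and 2.79% in the cytosolic libraries. Every nuclear median was above every cytosolic one. The medians averaged 7.65% ± 3.43 (SD, n = 4) over nuclear and 2.25% ± 0.382 over cytosolic libraries. Membrane libraries averaged 2.37% ± 0.537 and whole cells 3.35% ± 0.225. Nuclear medians were 2.05, 2.86, 5.24 and 3.30 times the cytosolic median of the same replicate, which is a mean log2 ratio of 1.67 ± 0.56 (SD), with p = 0.12 in an exact two-sided paired permutation test. This is the smallest p that 4 pairs allow. The nuclear to cytosolic fold was 2.42 over replicates 1 and 2 and 4.16 over replicates 3 and 4, so that its size differed between these pairs of replicates while its direction did not. Genes spread widely in both fractions, with mean nuclear shares of 2.99 to 17.9% and mean cytosolic shares of 1.18 to 7.58% from the 10th to the 90th percentile.

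Gene by gene, 6718 of 9749 genes (68.9%) had a higher new share in the nucleus and 11 (0.113%) in the cytosol in edgeR's quasi-likelihood test on T2C counts with the replicate as a block. A gene was called where the adjusted p was under 0.05 and the log2 ratio exceeded 0.5 in size. The nuclear share was the higher one in all 4 replicates for 7019 genes and the cytosolic share for 63. The median log2 ratio of nucleus to cytosol over genes was 1.51, a 2.85-fold difference. Over replicates 1 and 2 alone the counts were 4346 and 61, with a median log2 ratio of 1.10, and over replicates 3 and 4 alone 6336 and 5, with a median of 1.89. An error in a conversion rate would move all genes of a library alike, so each library was also centred on its median gene, which took a shift of 1.53 on the log2 scale out of the ratios. Relative to the median gene, the ratio was above it for 874 genes (8.97%) and below it for 996 genes (10.2%). Among the 3865 genes with a T count of 20000 or more, 88.8% were higher in the nucleus, 17.5% above and 10.0% below the median ratio. Their median log2 ratio was 1.64, and it was 0.13 relative to the median gene of all 9749. The reference gene was thus not the median of these 3865 genes, and the cause of their shares was not tested. Below, "above" and "below the median ratio" refer to this centred test.

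**Figure D1:**
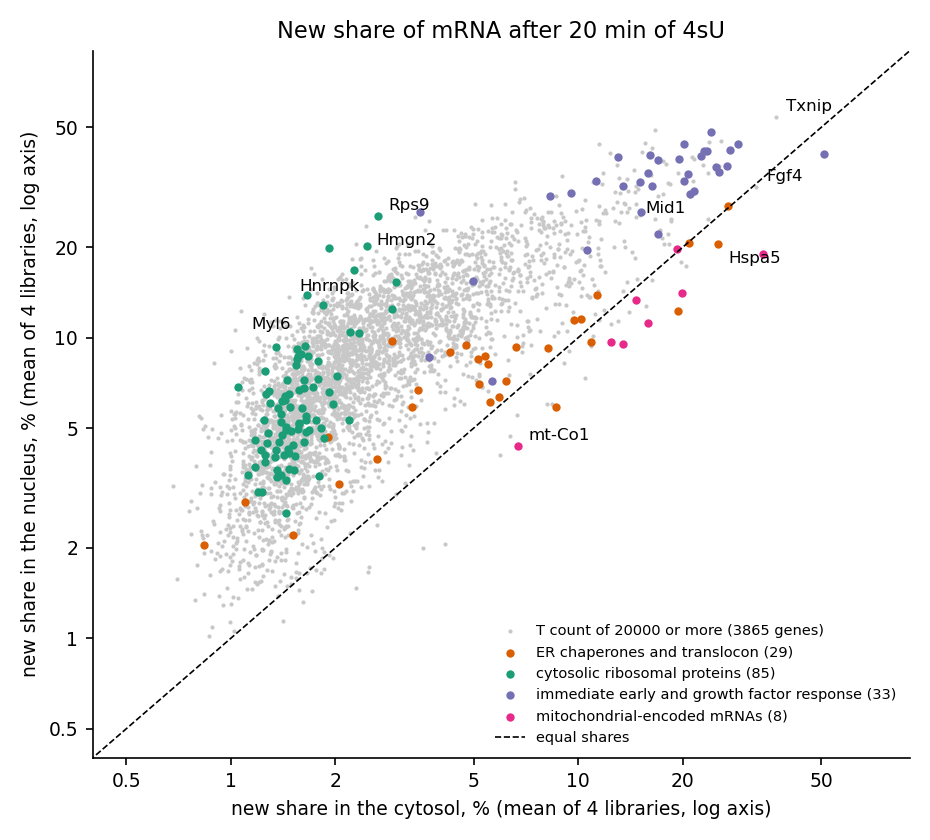
Mean new share in the nucleus against the mean new share in the cytosol at 20 min, in percent of 4 libraries each on log axes, for 3865 genes with a T count of 20000 or more (grey) and for all members of 4 gene lists (colors). Most genes lie above the dashed line of equal shares, mRNAs of ribosomal proteins among them, and ER chaperones and mitochondrially encoded mRNAs on or near it.

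The 10 named genes with the highest new share in the cytosol after 20 min were Txnip, Fgf4, Socs3, Zbtb6, Hspa5, Spry2, Ppp1r15a, Mid1, Zfp367 and Ier2. Txnip (chr3:96557957-96561883 in GRCm38), an inhibitor of thioredoxin and of glucose uptake, had the highest mean cytosolic share. It had shares of 42.3, 53.4, 63.7 and 57.6% in the nuclear libraries of replicates 1 to 4 and of 35.9, 38.7, 37 and 36.7% in the cytosolic libraries. The cytosolic libraries differed by little, the nuclear ones were all higher, and the ratio was just past the limits of a call (log2 ratio of 0.53, SE 0.25, adjusted p = 0.0452). Its ratio was -0.97 (SE 0.13, adjusted p = 8.82e-08) relative to the median gene. Socs3 (chr11:117966079-117970047), a feedback inhibitor of cytokine signaling through JAK kinases, had 42, 41.2, 45.6 and 39.7% in the nucleus and 27.6, 31.1, 23.2 and 27.4% in the cytosol (log2 ratio of 0.63, SE 0.29, adjusted p = 0.0446). All nuclear libraries of Socs3 were above all cytosolic ones. Ier2 (chr8:84661331-84662852), an immediate early gene, had 36.2, 38, 52.5 and 40.3% in the nucleus and 24, 24.1, 22.1 and 23.7% in the cytosol (log2 ratio of 0.82, SE 0.28, adjusted p = 0.00762). Ppp1r15a (chr7:45522916-45526268), a subunit that directs protein phosphatase 1 to the initiation factor eIF2 in the stress response, had 44, 42.8, 42.4 and 50.4% in the nucleus and 26.5, 21.5, 25.3 and 21.8% in the cytosol (log2 ratio of 0.92, SE 0.31, adjusted p = 0.00536). For both genes the groups did not overlap.

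Fgf4 (chr7:144847367-144865243), the fibroblast growth factor that embryonic stem cells secrete, had 19.7, 26.7, 43.2 and 37.3% in the nucleus and 25.3, 34.2, 34.7 and 35.5% in the cytosol. The groups overlapped and no difference was called (log2 ratio of -0.08, SE 0.27, adjusted p = 0.784), while relative to the median gene the ratio was -1.59 (SE 0.14, adjusted p = 1.92e-12). In replicates 1 and 2 the cytosolic share of Fgf4 was the higher one and in replicates 3 and 4 the nuclear one. Spry2, a feedback inhibitor of FGF signaling, had 25, 36.6, 47.4 and 39.1% in the nucleus and 17.6, 28.5, 27.8 and 25.8% in the cytosol, and the groups overlapped (log2 ratio of 0.56, SE 0.30, adjusted p = 0.0848). Zbtb6, a zinc finger protein, had 37.2% ± 7.06 (SD, n = 4) in the nucleus and 25.4% ± 6.44 (SD, n = 4) in the cytosol, and Zfp367, also a zinc finger protein, had 35.4% ± 7.24 (SD, n = 4) and 23.6% ± 4.36 (SD, n = 4). The adjusted p was 0.0945 for Zbtb6 and 0.0691 for Zfp367. Kbtbd2, an adaptor of a cullin ubiquitin ligase, had 37.4% ± 5.37 (SD, n = 4) in the nucleus and 22.9% ± 5.04 (SD, n = 4) in the cytosol and was among the called genes with the smallest ratios (log2 ratio of 0.72, SE 0.31, adjusted p = 0.0332).

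The share of Mid1, a microtubule-associated ubiquitin ligase gene of 321 kb on chromosome X, did not behave as those of the other genes with a high cytosolic share. It was 25.9, 23.4, 24.8 and 24.7% in the nucleus and 27.4, 25.9, 20.9 and 20.3% in the cytosol. In the cytosolic libraries of other labeling times it was 24 and 27.8% at 15 min, 21.2 and 23.1% at 30 min and 19.5 and 22% at 40 min. For Txnip it was 20.0 and 25.5%, 51.9 and 59.4% and 71.8 and 78.1% at these times, and for Ier2 14.8 and 18.4%, 33.2 and 34.5% and 41.2 and 50.8%. A share that does not grow with labeling time was thus measured for Mid1 in the cytosol, and the cause was not tested.

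Many mRNAs of fast turnover carry AU-rich elements in their 3′ UTR, to which decay factors bind, and the heptamer TATTTAT is the core of such elements. It was searched on the sense strand, overlapping matches included, in the annotated 3′ UTR of 1 transcript per gene (Gencode M21, GRCm38). Of the 10 named genes with the highest cytosolic share, 6 had a match, against 26.6% of all genes with an annotated 3′ UTR and 30.6% of such genes among the 3865. The first match with 11 bases of UTR on either side is shown for each of the 6, 5′ to 3′ along the mRNA and with the heptamer in capitals, since these are the mRNAs that were newest in the cytosol.
Socs3 chr11:117966139-117966167 (minus strand): ctttgcacataTATTTATatttatactca
Fgf4 chr7:144863069-144863097 (plus strand): ggacgcccaatTATTTATaattttatgta
Spry2 chr14:105892092-105892120 (minus strand): agtgtaaagaaTATTTATttgaagtttta
Ppp1r15a chr7:45522957-45522985 (minus strand): tagtttcctatTATTTATttatttattta
Zbtb6 chr2:37425992-37426020 (minus strand): aatgtggttgtTATTTATattatttattt
Zfp367 chr13:64134919-64134947 (minus strand): ttgaaatagatTATTTATaagatcatttt
The stretch of Ppp1r15a repeats the ATTT unit on past the heptamer and its 3′ UTR held 4 matches. Those of Socs3, Spry2, Zbtb6 and Zfp367 held 2 each and that of Fgf4 held 1. The heptamer was not particular to these genes. It was also in 4 of the 10 named genes new in the nucleus only and in 2 of the 10 with the largest nuclear to cytosolic ratio, of which 1 and 2 are shown.
Eif4a1 chr11:69666977-69667005 (minus strand): gttttgtatagTATTTATtgattcaggaa
Stam2 chr2:52692558-52692586 (minus strand): atgtttgtagcTATTTATtttcagccaaa
Ube2n chr10:95543180-95543208 (plus strand): tactgagtgagTATTTATaaactggctct
A match is only these letters in the UTR, and Txnip, Hspa5, Mid1 and Ier2 had none in the transcript used.

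Immediate early and growth factor response genes had high shares in both fractions and ratios on the low side. Of 49 genes in this list 33 were measured, and their median share was 34.9% for the nucleus and 17% for the cytosol, against 7.74% for the nucleus and 2.31% for the cytosol over all genes. In the nucleus 22 (66.7%) were higher, near the 68.9% of all genes, and 15 (45.5%) were below the median ratio, against 10.2% of all genes, while none was above it in edgeR (1 at an unadjusted p under 0.05 and 0 with DESeq2). The median log2 ratio of the list was 0.90, and it was 0.67 in replicates 1 and 2 and 1.09 in replicates 3 and 4. Zfp36, which encodes a protein that binds AU-rich elements and promotes decay, had 25.7, 44.6, 51.1 and 41.8% in the nucleus and 73.8, 57.8, 51.7 and 20.8% in the cytosol, which is a wide spread over cytosolic libraries. Dusp6, a phosphatase of ERK, had 30.1, 31.8, 47.1 and 39.7% in the nucleus and 21.9, 28.5, 29.3 and 27.5% in the cytosol (log2 ratio of 0.46, SE 0.32, adjusted p = 0.183). Its groups did not overlap, but the ratio was not past the limits of a call. All 10 list members with a T count of 20000 or more were in the class of genes with new RNA in the cytosol that is described below. Of all 3865 genes with such counts 1419 (36.7%) were in this class.

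Pluripotency transcription factors ranged from ratios well below to well above the median gene. Of 28 measured members of this list 24 had a T count of 20000 or more. In the nucleus 26 (92.9%) were higher, 5 (17.9%) were below and 6 (21.4%) above the median ratio, against 88.8, 10.0 and 17.5% of genes with such counts, and the median share was 19.9% for the nucleus and 7.62% for the cytosol. Sox2, a core factor, had 25.5, 31.8, 46.1 and 35.3% in the nucleus and 14.4, 17.8, 16.8 and 15.8% in the cytosol (log2 ratio of 1.07, SE 0.26, adjusted p = 0.000153). Klf4 was similar, with 30.5% ± 8.21 (SD, n = 4) in the nucleus and 14.6% ± 2.29 (SD, n = 4) in the cytosol. Nanog, another core factor, had 16.5, 19.3, 46.5 and 30.2% in the nucleus, and 6.6, 6.99, 6.53 and 6.83% in the cytosol (log2 ratio of 1.94, SE 0.27, adjusted p = 2.06e-11). The cytosolic libraries of Nanog were close to each other while the nuclear ones ranged widely. Tcf7l1, a repressor of the pluripotency network, had the largest ratio of the list with 11, 17.5, 24.8 and 20.3% in the nucleus and 2.89, 2.6, 2.41 and 4.23% in the cytosol (log2 ratio of 2.57, SE 0.36, adjusted p = 5.43e-11). Pou5f1, the third core factor, had little new RNA in either fraction, with 1.95, 2.55, 7.05 and 4.65% in the nucleus and 1.62, 1.37, 1.74 and 1.71% in the cytosol (log2 ratio of 1.17, SE 0.29, adjusted p = 0.000234). The 5 list members below the median ratio were Nr5a2, Klf5, Klf2, Tbx3 and Smad7. Of these Smad7 is an inhibitory Smad and not itself a pluripotency transcription factor. Of the p53 targets 24 of 25 were measured, 19 (79.2%) were higher in the nucleus, 4 (16.7%) below and 1 (4.17%) above the median ratio, against 68.9, 10.2 and 8.97% of all genes. The one above was Mdm2, the ubiquitin ligase of p53, with 19.5, 23.5, 36.5 and 37% in the nucleus and 5.98, 5.74, 4.4 and 11.8% in the cytosol.

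Among lists of mRNAs translated at the ER, most members had a ratio of nucleus to cytosol below that of the median gene and a lower new share in the membrane fraction than in the cytosol. The list of ER chaperones and translocon subunits had a median share of 8.48% in nuclear libraries and 5.49% in cytosolic ones. It was 1.81% in the membrane fraction, where these mRNAs had 13.4 times the CPM of the cytosol in the median. Over all genes the median share was 2.31% in the cytosol and 2.43% in the membrane fraction. Of the 29 measured members 21 (72.4%) were below the median ratio, against 10.2% of all genes, and none was above it in edgeR (0 at an unadjusted p under 0.05 and 0 with DESeq2). In the nucleus 4 (13.8%) were higher, against 68.9% of all genes. The median log2 ratio was 0.38, with -0.21 in replicates 1 and 2 and 0.64 in replicates 3 and 4, so that its sign differed between these pairs of replicates, whereas relative to the median gene it was -1.31 and -1.21.

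Hspa5 (chr2:34771970-34777547), the main Hsp70 chaperone of the ER, had 11.4, 13.9, 32.8 and 24% in the nucleus and 22.4, 23, 25.5 and 30.2% in the cytosol. Its membrane shares were 1.86, 2.13, 4.97 and 4.87%. Nucleus and cytosol overlapped (log2 ratio of -0.43, SE 0.28, adjusted p = 0.162), relative to the median gene the ratio was -1.93 (SE 0.15, adjusted p = 1.44e-14), and every membrane library was below every cytosolic one. Calr, a calcium-binding lectin chaperone, had 5.61, 8.08, 17.9 and 14.4% in the nucleus and 7.0, 9.32, 12.3 and 12% in the cytosol. Its membrane shares were 2.89, 2.71, 3.49 and 3.89%. Pdia3, a protein disulfide isomerase, had 5.88% ± 3.64 (SD, n = 4) in the nucleus and 8.64% ± 2.65 (SD, n = 4) in the cytosol. In the membrane fraction it had 1.6% ± 0.479 (SD, n = 4), and its nuclear to cytosolic ratio was -2.22 (SE 0.21, adjusted p = 8.08e-12) relative to the median gene. Dnajb9, an Hsp40 cochaperone induced by ER stress, had 27.5% ± 11.2 (SD, n = 4), 27% ± 1.65 (SD, n = 4) and 12.2% ± 5.86 (SD, n = 4). Not all ER chaperones were alike. Hyou1, an Hsp110 family member of the ER, had 9.76% ± 4.13 (SD, n = 4) in the nucleus and 2.9% ± 1.93 (SD, n = 4) in the cytosol, the latter on 42 T2C mutations in all.

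**Figure D2:**
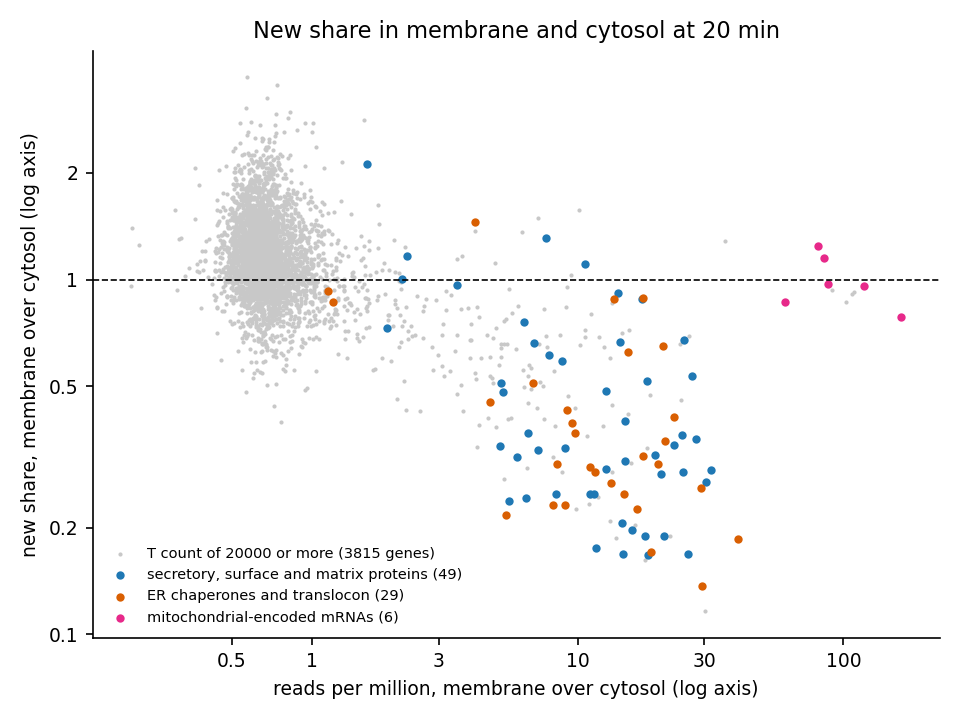
New share in the membrane fraction divided by that in the cytosol (log axis, means of 4 libraries at 20 min) against CPM in the membrane fraction divided by those in the cytosol (log axis), for genes with a T count of 20000 or more (grey) and the members of 3 gene lists with a value on both axes (colors). Members of both lists of ER-bound mRNAs lie mostly below the dashed line of equal shares, with a median of 0.319 for ER chaperones and 0.342 for secretory, surface and matrix proteins, while mitochondrially encoded mRNAs lie near the line.

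mRNAs of secretory, surface and matrix proteins showed the same order. Of 49 measured members 30 (61.2%) were below the median ratio, against 10.2% of all genes, and none was above it in edgeR (1 at an unadjusted p under 0.05 and 0 with DESeq2), and the median share was 6.85% for the nucleus and 5.55% for the cytosol and 1.88% in the membrane fraction. The membrane share was below the cytosolic share in all 4 replicates for 32 of these 49 genes and for 21 of the 29 ER genes, against 434 (42.9%) of 1011 genes with 3 or more times the CPM of the cytosol in the membrane fraction and 809 (8.30%) of all genes, given without a test. Kit, the receptor of stem cell factor, had 10.2, 11.5, 18.1 and 15.8% in the nucleus and 4.73, 6.78, 11.8 and 12.4% in the cytosol. Its membrane shares were 1.32, 1.44, 2.88 and 2.69%. Kit was also one of the 10 called genes with the smallest nuclear to cytosolic ratio (log2 ratio of 0.70, SE 0.31, adjusted p = 0.0364). Tfrc, the transferrin receptor, had 14.2, 13.6, 28 and 23.3% in the nucleus and 4.92, 6.9, 12.3 and 10.9% in the cytosol (log2 ratio of 1.20, SE 0.28, adjusted p = 7.88e-05). Its membrane shares were 1.51, 1.5, 3.12 and 2.36%. Fgf4, a secreted factor, had 4.75, 6.87, 14.3 and 12.2% in the membrane fraction, below its cytosolic shares in all replicates.

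By CPM in the membrane fraction over the cytosol, 8243 genes were under 1.5, 367 between 1.5 and 3, and 1011 at 3 or more. The median log2 ratio of nucleus to cytosol was 1.60, 1.08 and 0.78 in these groups, the share of genes called higher in the nucleus 74.5, 46.3 and 32.3%, and the share below the median ratio 6.88, 15.0 and 34.8%. Within replicates 1 and 2 the medians were 1.19, 0.69 and 0.39, and within replicates 3 and 4 they were 1.98, 1.49 and 1.12, in the same order. The median log2 ratio of CPM of nucleus to cytosol was 1.87 in the last group and -0.05 in the first. Fewer of these mRNAs in the cytosol and membrane-bound mRNA left with the nuclei cannot be told apart here, and their part in the ratios was not tested.

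The 11 genes with a higher new share in the cytosol than in the nucleus were Tmed5, Tenm3, Ids, Gfod2, St5, Sptbn1, Nodal, Tmed7, Impad1, mt-Nd4l and mt-Co1. They were chosen by the call, and most had few counts, with 44 to 368 T2C mutations over the 4 cytosolic libraries in all but mt-Co1. In the 6 pairs of libraries of 15, 30 and 40 min, all 11 had a higher cytosolic share and 6 were called. Nodal, a secreted TGF-beta family ligand, had 17.7, 18.2, 33.9 and 27.6% in the nucleus and 56, 65.1, 45.1 and 48.7% in the cytosol (log2 ratio of -1.19, SE 0.37, adjusted p = 0.00242). Its membrane shares were 7.53, 8.15, 11.3 and 18.3%. All cytosolic libraries of Nodal were above all others. Tmed5 and Tmed7 encode cargo receptors of early secretory vesicles. Tmed5 had 4.51, 3.93, 10.3 and 7.04% in the nucleus and 25, 20.6, 12.4 and 13.2% in the cytosol (log2 ratio of -1.56, SE 0.40, adjusted p = 0.00031). St5 had 1.23, 1.97, 3.62 and 2.98% in the nucleus and 1.2, 1.34, 17.6 and 15.8% in the cytosol, so that it was higher in the cytosol in replicates 3 and 4 alone. Impad1, a phosphatase of the Golgi, had 6.69, 5.4, 12.3 and 7.25% in the nucleus and 16, 16, 16.4 and 16.5% in the cytosol (log2 ratio of -1.11, SE 0.33, adjusted p = 0.00209). The share of Sptbn1, which encodes a spectrin of the membrane skeleton, was 1.04, 1.1, 1.64 and 1.74% in the nucleus and 1.28, 2.69, 7.55 and 3.72% in the cytosol, and only its values in replicates 2 to 4 of the cytosol were above all nuclear ones.

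Mitochondrially encoded mRNAs, which are made in the mitochondrion and do not pass through the nucleus, were also present in both fractions. Of 13, 8 were measured. None was higher in the nucleus in edgeR (0 at an unadjusted p under 0.05 and 0 with DESeq2), against 68.9% of all genes. In the cytosol 2 were higher, against 0.113% of all genes, and all 8 were below the median ratio, against 10.2%. The 2 were mt-Co1 and mt-Nd4l. HTSeq counted no reads on mt-Nd4l in these fractions, and it was not called at 15, 30 and 40 min (log2 ratio of -0.33, adjusted p = 0.111 in edgeR). The median log2 ratio of the 8 mRNAs was -0.47, against 1.51 over all genes. Subunit I of cytochrome c oxidase, mt-Co1, had 3.05, 3.23, 5.54 and 5.6% in the nucleus and 5.5, 6.65, 6.89 and 7.84% in the cytosol (log2 ratio of -0.68, SE 0.26, adjusted p = 0.0163). Its membrane shares were 4.2, 4.46, 6.3 and 6.16%. Subunit 2 of complex I, mt-Nd2, had 19.7% ± 2.55 (SD, n = 4), 19.2% ± 3.19 (SD, n = 4) and 23.8% ± 3.51 (SD, n = 4). Nuclear copies of mitochondrial genes share sequence with these mRNAs, so that their counts are uncertain.

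Noncoding RNAs of the nucleus and hosts of snoRNAs had high shares in both fractions, and a ratio below that of the median gene was common among them. Of 31 in the list 24 were measured, 10 (41.7%) were higher in the nucleus and 14 (58.3%) below the median ratio, against 68.9 and 10.2% of all genes, and the median share was 33.4% for the nucleus and 14.8% for the cytosol. Malat1, a noncoding RNA of nuclear speckles, had 8.54, 12.3, 11.1 and 13.6% in the nucleus and 9.92, 14.5, 17.1 and 10.4% in the cytosol (log2 ratio of -0.17, SE 0.27, adjusted p = 0.57). Its level was 893 to 1927 CPM in the nuclear libraries and 54.2 to 122 CPM in the cytosolic ones, so that the cytosolic libraries held little of it. Neat1, the scaffold of paraspeckles, had 43.9, 33, 41 and 35.3% in the nucleus and 33.8, 27.1, 50.1 and 44.8% in the cytosol (log2 ratio of 0.01, SE 0.26, adjusted p = 0.971). The host gene Snhg15 was mostly new RNA in both fractions, with 58.5, 64, 91.6 and 90.9% in the nucleus and 52.7, 74.1, 73.5 and 88.8% in the cytosol. Gas5, whose spliced RNA is a target of nonsense-mediated decay, had 9.94% ± 4.15 (SD, n = 4) in the nucleus and 2.25% ± 0.661 (SD, n = 4) in the cytosol (log2 ratio of 2.10, SE 0.36, adjusted p = 8.23e-08). Whether the RNA of Malat1 and Neat1 in the cytosolic libraries was carried over from nuclei was not tested.

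At the other end were mRNAs with a far higher new share in the nucleus than in the cytosol. Their cytosolic shares were not all low for a gene. The means of 2.45% for Hmgn2 and 2.3% for Ube2n were near the median of 2.31% over all genes. Myl6 (chr10:128490860-128494145), a light chain of myosin, had the largest ratio of the 3865 genes, with 6.76, 9.43, 18.9 and 14.1% in the nucleus and 1.21, 0.831, 0.913 and 1.31% in the cytosol (log2 ratio of 3.46, SE 0.36, adjusted p = 1.47e-18). Hmgn2, which encodes a nucleosome-binding protein, had 17.4, 18.7, 31.5 and 26.2% in the nucleus and 2.92, 3.03, 1.8 and 2.04% in the cytosol (log2 ratio of 3.26, SE 0.38, adjusted p = 3.33e-15). Its cytosolic values were lower in replicates 3 and 4, in which the nuclear values were higher. Hnrnpk, an RNA-binding protein of the nucleus, had 8.63, 9.45, 24 and 12.6% in the nucleus and 1.17, 1.31, 1.51 and 1.87% in the cytosol (log2 ratio of 3.11, SE 0.29, adjusted p = 4.3e-23). Ube2n, a ubiquitin-conjugating enzyme for K63-linked chains, had 20.5% ± 7.38 (SD, n = 4) and 2.3% ± 0.402 (SD, n = 4). Usf1, a basic helix-loop-helix factor, had 17% ± 10.3 (SD, n = 4) and 1.7% ± 0.207 (SD, n = 4). Stam2, which sorts receptors at endosomes, had 10.6% ± 4.27 (SD, n = 4) and 1.03% ± 0.418 (SD, n = 4). Gnpnat1 of UDP-GlcNAc synthesis had 12% ± 5.51 (SD, n = 4) and 1.25% ± 0.42 (SD, n = 4). Rfc4 of the DNA clamp loader had 8.99% ± 2.55 (SD, n = 4) and 1.0% ± 0.169 (SD, n = 4). In all of these every nuclear library was above every cytosolic one.

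**Figure D3:**
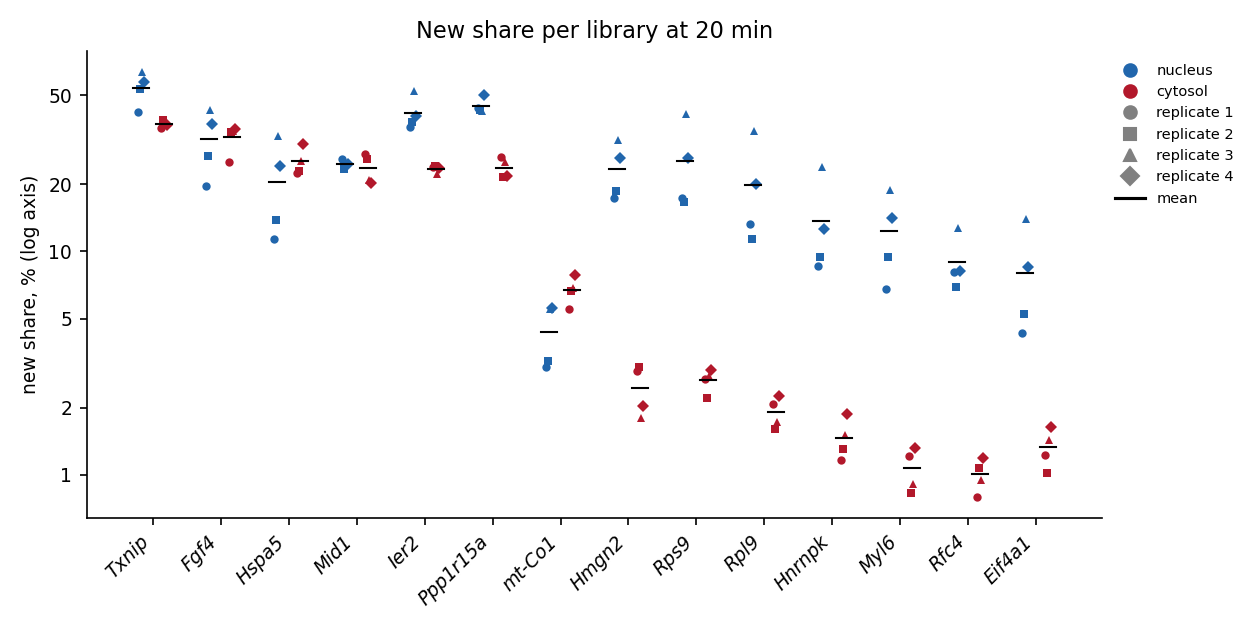
New share per library at 20 min (log axis, percent) of 14 named genes in the nucleus (blue) and the cytosol (red), with 1 marker shape per replicate and the mean as a bar. Fgf4, Hspa5 and Mid1 overlap between fractions, mt-Co1 is higher in the cytosol in each replicate, and the nuclear and cytosolic values of the genes on the right are far apart.

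Some ribosomal protein mRNAs were at this end. Of 85 measured cytosolic ribosomal protein genes 82 had a T count of 20000 or more. In the nucleus 84 (98.8%) were higher, 23 (27.1%) were above the median ratio and 2 (2.35%) below it, against 88.8, 17.5 and 10.0% of genes with such counts, and the median share was 5.32% for the nucleus and 1.51% for the cytosol. Rps9 (chr7:3703993-3706897) had 17.4, 16.7, 41.2 and 26.2% in the nucleus and 2.69, 2.2, 2.78 and 2.95% in the cytosol (log2 ratio of 3.16, SE 0.28, adjusted p = 3.58e-25). Despite this ratio Rps9 was in the class of genes with new RNA in the cytosol that is described below. Rpl9 (chr5:65388364-65391444) had 13.3, 11.4, 34.5 and 20.1% in the nucleus and 2.07, 1.6, 1.73 and 2.25% in the cytosol (log2 ratio of 3.24, SE 0.29, adjusted p = 3.58e-25). The smallest ratios of the list were those of Rpl22 with 2.6% ± 1.47 (SD, n = 4) in the nucleus and 1.44% ± 0.259 (SD, n = 4) in the cytosol, and of Rplp2. The list's median log2 ratio was 1.12 in replicates 1 and 2 and 2.28 in replicates 3 and 4, and relative to the median gene it was 0.40 in replicates 3 and 4 and not above it in replicates 1 and 2. Many of these genes have near-identical processed pseudogenes that can take or give reads, so that single values are uncertain.

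Translation factors and splicing factors were called higher in the nucleus about as often as other genes of their counts. Of 36 translation factors, all with a T count of 20000 or more, 33 (91.7%) were higher in the nucleus, 12 (33.3%) above and 3 (8.33%) below the median ratio, against 88.8, 17.5 and 10.0% of such genes, with a median share of 6.85% for the nucleus and 1.58% for the cytosol. Eif5, the GTPase-activating protein of eIF2, had 8.5, 10.4, 27 and 19.1% in the nucleus and 1.38, 1.35, 2.06 and 2.17% in the cytosol (log2 ratio of 3.11, SE 0.30, adjusted p = 4.3e-22). Eif4g2, an initiation factor of cap-independent translation, had 11.3% ± 6.12 (SD, n = 4) and 1.3% ± 0.298 (SD, n = 4). Eif1, which acts in start codon selection, was newer in both fractions, with 31.1% ± 7.1 (SD, n = 4) and 6.58% ± 0.555 (SD, n = 4). Of 30 SR and related splicing factors and Clk kinases 29 had a T count of 20000 or more. In the nucleus 27 of the 30 were higher, 11 (36.7%) were above and 4 (13.3%) below the median ratio, against the same shares. Srsf3, an SR protein that also acts as an export adaptor, had 12.5, 13.1, 29 and 18.7% in the nucleus and 2.31, 2.25, 2.26 and 2.09% in the cytosol (log2 ratio of 2.95, SE 0.29, adjusted p = 1.57e-20). The cytosolic libraries of Srsf3 were close to each other and far below all nuclear ones.

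**Figure D4:**
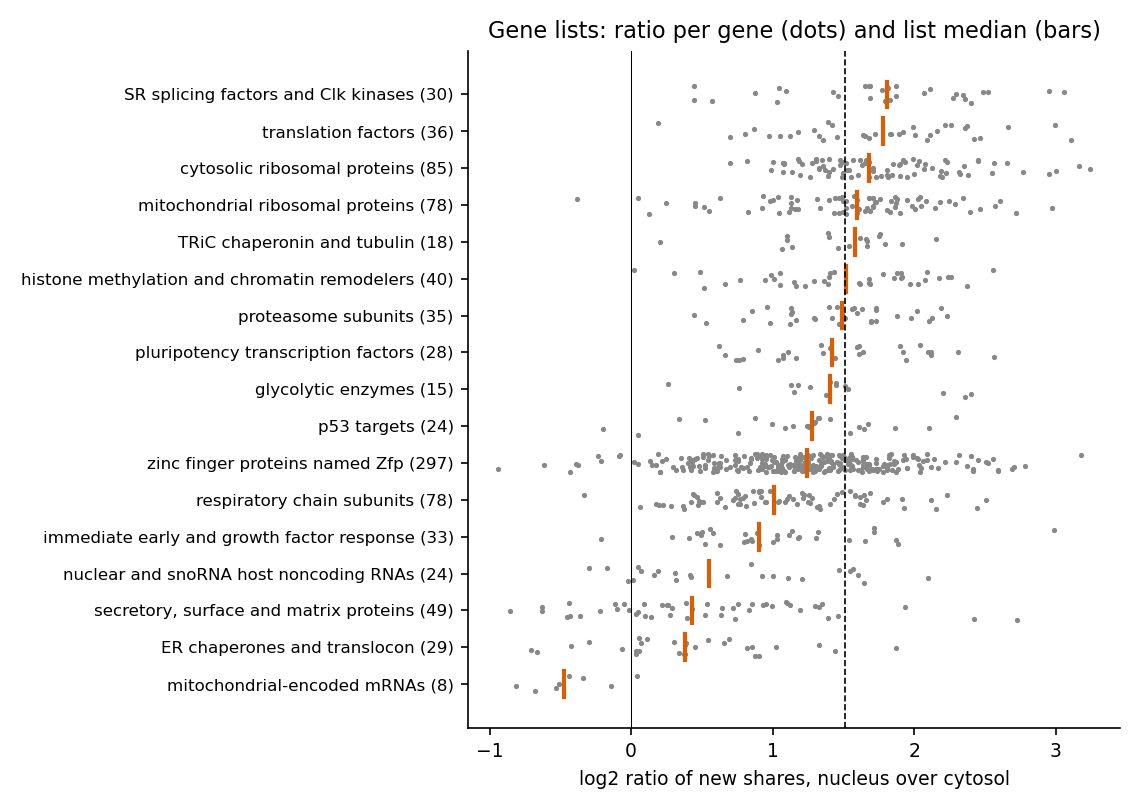
log2 ratio of the new share of nucleus to cytosol at 20 min per gene (dots) for 17 gene lists with the number of measured members, ordered by the list median (orange bars). The dashed line is the median of all 9749 genes at 1.51 and the solid line is an equal share, and the medians of the ER, secretory and noncoding lists lie between the 2 lines, that of the mitochondrially encoded mRNAs left of both.

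The other lists lay between these ends, and their counts are set against 68.9% of all genes higher in the nucleus, 8.97% above and 10.2% below the median ratio. Among genes with a T count of 20000 or more these shares were 88.8, 17.5 and 10.0%. Such counts were reached by 12 glycolytic, 15 TRiC and tubulin, 33 chromatin and 32 proteasome genes, most of their lists. They were also reached by 25 mitochondrial ribosomal, 43 respiratory chain and 89 Zfp genes. Of 15 glycolytic enzymes 12 were higher in the nucleus and 3 above the median ratio (Pkm, Tpi1 and Aldoa), with a median share of 4.4% for the nucleus and 1.59% for the cytosol. Of 18 subunits of the TRiC chaperonin and tubulins 17 were higher in the nucleus, 1 was above and 1 below, the latter Tubb3, a neuronal tubulin, with 16.5% ± 1.59 (SD, n = 4) in the nucleus and 14.3% ± 1.34 (SD, n = 4) in the cytosol. Of 40 histone methylation and chromatin remodeling genes 34 were higher in the nucleus, 6 above and 4 below, and the 4 were Chd4, Jarid2, Kmt2a and Setd2. Chd4, the ATPase of the NuRD complex, had hardly any new RNA, with 1.65% ± 0.603 (SD, n = 4) in the nucleus and 1.57% ± 0.304 (SD, n = 4) in the cytosol. Of 78 mitochondrial ribosomal proteins 60 were higher in the nucleus, 6 above and 3 below. Of 78 nuclear-encoded subunits of the respiratory chain 38 were higher in the nucleus, 1 above and 13 below, with a median log2 ratio of 1.01. Of 35 proteasome subunits 31 were higher in the nucleus, 1 above and 2 below. Of 297 zinc finger genes named Zfp 196 were higher in the nucleus, 6 above and 50 below, and their median shares of 13.7% for the nucleus and 5.51% for the cytosol were above those of all genes. Zfp534 and Zfp984 were among the called genes with the smallest ratios, with 9.73% ± 0.538 (SD, n = 4) and 11.6% ± 1.44 (SD, n = 4) in the cytosol, but they lie in a cluster of like genes on chromosome 4 between which reads can be split. Hjurp, L1td1 and Qk completed the 10 called genes with the smallest ratios, with log2 ratios of 0.69, 0.72 and 0.72. Hjurp is a chaperone of the centromeric histone, L1td1 an RNA-binding protein of embryonic stem cells and Qk a splicing regulator. Some genes without a call had smaller ratios, Hspa5 with -0.43 and Fgf4 with -0.08 among them.

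To sort genes by whether new RNA was measurable in the cytosol at all, a floor was set in each library as the 5th percentile of T2C mutations per T position over the 3865 genes, since libraries without 4sU were not analysed here. As a share it was 0.869, 0.782, 0.958 and 1.10% in the cytosolic libraries and 1.25, 1.49, 3.55 and 3.16% in the nuclear ones. Of the 3865 genes, 1419 (36.7%) were at 2 times the floor or more in all 4 cytosolic libraries and are called new in the cytosol. This class does not mark a low ratio. Of its genes 1262 were called higher in the nucleus, against 3432 of the 3865, and the median log2 ratio was 1.53 against 1.64. Spearman's rho of the nuclear with the cytosolic share was 0.79 over the 3865 genes. Only 28 (0.724%) were at 2 times the floor in all 4 nuclear libraries and under 1.5 times the floor in all 4 cytosolic ones and are called new in the nucleus only, and all other genes lay between. The name compares nucleus and cytosol alone, and the membrane fraction was not part of the rule. These classes carry no test, and the small one depends on its limits. It held 0 genes with a floor at the 1st percentile, 114 when the nuclear libraries took the cytosolic floor, and 42 to 55 when 1 replicate was left out.

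The 28 genes new in the nucleus only were 27 protein-coding genes and 1 processed pseudogene. Those with the highest nuclear shares included Myl6, Snx2, Dcakd, Rfc4, Gna11, Slc25a13, Eif4a1, Usp33 and Rps6kb1. Snx2, a sorting nexin of endosomes, had 6.37, 6.52, 16.1 and 8.9% in the nucleus and 1.21, 1.09, 1.31 and 1.38% in the cytosol. Eif4a1, the helicase of the cap-binding complex, had 4.33, 5.24, 14 and 8.48% in the nucleus and 1.22, 1.02, 1.43 and 1.64% in the cytosol. Its paralog Eif4a2 had 35.6, 38.1, 54.7 and 48% in the nucleus and 10.5, 11.8, 12.1 and 11.7% in the cytosol and was new in the cytosol. Dcakd had 9.22% ± 4.39 (SD, n = 4) and 1.12% ± 0.204 (SD, n = 4). In the same order Slc25a13, a mitochondrial aspartate and glutamate carrier, had 8.24% ± 3.56 (SD, n = 4) and 1.16% ± 0.134 (SD, n = 4). Gna11, a G protein alpha subunit, had 8.57% ± 4.48 (SD, n = 4) and 1.2% ± 0.202 (SD, n = 4). Usp33, a deubiquitinase, had 7.92% ± 1.75 (SD, n = 4) and 1.06% ± 0.267 (SD, n = 4), and Rps6kb1, the S6 kinase, had 7.8% ± 2.68 (SD, n = 4) and 1.14% ± 0.172 (SD, n = 4). The ribosomal protein genes Rpl13a, Rps12 and Rps4x and the cold shock protein gene Ybx1 were in the class as well. In the membrane libraries of replicates 1 to 4 the median share of the 28 genes was 1.21, 1.09, 1.83 and 1.80%. The floor, set in the same way, was 0.812, 0.716, 1.24 and 1.19% there. Membrane shares were 3.38, 3.00, 5.63 and 2.84% for Rps6kb1 and 1.10, 0.915, 1.69 and 1.44% for Myl6, so that new RNA outside the nucleus is not excluded for this class.

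Libraries of other times were not used to make the classes. The median cytosolic share of the 28 genes was 1.11 and 0.904% at 15 min, 1.51 and 1.27% at 30 min and 1.90 and 2.10% at 40 min. For the 1419 genes new in the cytosol it was 2.71 and 1.93% at 15 min, 6.50 and 6.30% at 30 min and 8.50 and 8.90% at 40 min. At 40 min 7 and 9 of the 28 genes were at 2 times the floor of the cytosolic library, as were 1403 and 1401 of the 1419 and 1394 and 1404 of the 2418 genes between. In the nucleus the 28 genes had a median share of 11.5 and 11.3% at 40 min. Myl6 had 20.1 and 22.8% in the nucleus and 1.15 and 1.36% in the cytosol at 40 min, while its cytosolic share at 20 min was 0.831 to 1.31%. Times of 15 and 30 min had replicates 1 and 2 and 40 min replicates 3 and 4, so that time and replicate pair cannot be told apart.

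**Figure D5:**
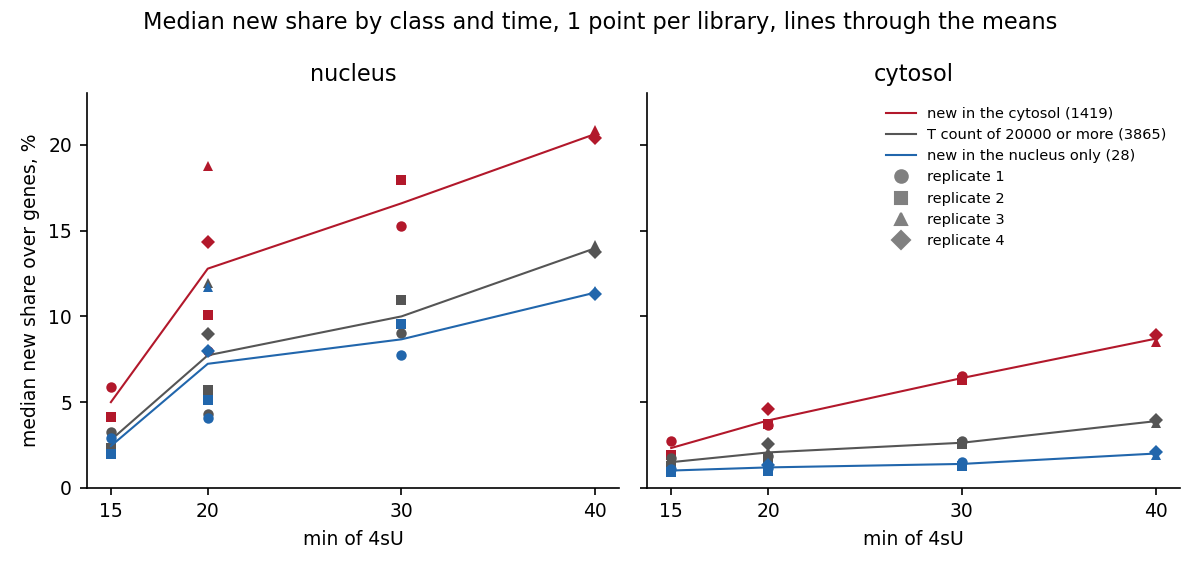
Median new share over genes in the nucleus (left) and the cytosol (right) in percent against the labeling time in min, for genes new in the cytosol (1419), genes new in the nucleus only (28) and all 3865 genes with a T count of 20000 or more, 1 marker per library and a line through the means. In the cytosol the 28 genes reach 1.90 and 2.10% at 40 min, below the 8.50 and 8.90% of the 1419.

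Genes new in the cytosol had fewer exons and longer 3′ UTRs than the other genes, given here as medians with no test. The median gene length was 25.3 kb for genes new in the cytosol, 31.1 kb for those new in the nucleus only and 27.0 kb for all 3865 genes. The median exon number was 7, 12.5 and 11, and the median 3′ UTR length 1739, 537 and 1158 bases. Across the 3860 genes with a transcript, Spearman's rho of the exon number was -0.37 with the cytosolic share, -0.38 with the nuclear share and 0.04 with the ratio, given as a description over genes that share the libraries. Gene length had a rho of 0.01 with the ratio. TATTTAT was in the 3′ UTR of 39.8% of genes new in the cytosol, 18.5% of those new in the nucleus only (5 of 27) and 30.6% of those with an annotated 3′ UTR among the 3865, but per kb of 3′ UTR there were 0.291, 0.179 and 0.284 matches, and within the last 300 bases 11.2, 5.26 and 9.72% of genes had one. Membrane-bound mRNAs, with CPM in the membrane fraction of 3 or more times those in the cytosol, were new in the cytosol in 104 of 143 genes, 3 of which had no HTSeq counts in the cytosol, against 1256 of 3602 genes (34.9%) under 1.5 times. In nuclear introns with a T count of 2000 or more the median share was 48.1% for genes new in the cytosol and 32.9% for the 28 genes.

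The direction held at other times. In 6 pairs of libraries of 15, 30 and 40 min the new share was higher in the nucleus for 7463 of 9749 genes (76.6%) and in the cytosol for 77 (0.79%), with a median log2 ratio of 1.35. Without the pair as a block the counts were 5184 and 11. Taken by time, median log2 ratios were 0.73, 1.54 and 1.57 for 15, 30 and 40 min. Of the 6718 genes higher in the nucleus at 20 min, 6707 had the same sign in these libraries and 6186 were called. Since 76.6% of all genes were called higher in the nucleus there, most genes would share this sign. Of the 874 genes above the median ratio at 20 min 841 were above the median gene there too, and of the 996 below it 946 were below. By definition as many of all genes lie above the median gene as below it. From 20 to 40 min in replicates 3 and 4 the ratio rose for 30 genes (0.308%) and fell for 95 (0.974%), with a median change of -0.39 on the log2 scale, and without the pair as a block 84 and 338 were called. Ratios were not centred in this test. On simulated data it recovered 0 of 100 genes with a log2 change of 1 and 28 of 100 with a change of 2, so that most changes of this size are missed.

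The genes that served as examples in the study were Myc, Nf1, Tfrc and Slf1. Myc, a transcription factor of growth, had 23.2, 35.8, 37.6 and 36.5% in the nucleus and 11.9, 30.7, 30.8 and 7.11% in the cytosol, where replicates 1 and 4 were low and rested on 22 and 11 T2C mutations (log2 ratio of 0.89, SE 0.42, adjusted p = 0.0505). Nf1, a GTPase-activating protein of Ras with a gene of 242 kb, had 5.02, 5.79, 12.1 and 11.6% in the nucleus and 1.3, 0.74, 2.93 and 4.93% in the cytosol (log2 ratio of 1.98, SE 0.45, adjusted p = 3.94e-05), with no overlap between fractions. Slf1, which takes part in the repair of DNA crosslinks, had 2.32, 2.37, 7.86 and 6.77% in the nucleus and 1.26, 1.76, 1.69 and 5.23% in the cytosol (log2 ratio of 0.98, SE 0.54, adjusted p = 0.0968), and its cytosolic shares rested on 4 to 25 T2C mutations.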

How the data were processed

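For each gene and exon, the deposited tables hold a T count and a T2C count, made by the authors from aligned reads, and the conversion rate of each library as a fraction, p_conv, deposited by the authors. Read counts per gene were deposited as HTSeq counts. The submitters' processing notes name STAR 2.7.6, HTSeq 0.11.1 and RSEM 1.3.3, and the build is mm10 (GRCm38) with Gencode M14. The reads carry no molecular identifiers. Reads that HTSeq assigned to no annotated feature were not part of the read counts per gene. They made up 3.33 to 10.6% in the cytosol and 19.9 to 27.8% in the nucleus, and reads in introns can be among them. The replicates are independently passaged cultures per the labels, and no background was subtracted, since libraries without 4sU were not analysed here.

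T2C counts of 9749 genes were tested with edgeR 4.0.16 (quasi-likelihood, offset of T count times conversion rate, replicate as a block, Benjamini-Hochberg adjustment) in R 4.3.3, with DESeq2 1.42.0 and limma 3.58.1 as alternatives. Medians, permutation tests and figures used Python 3.11.15, numpy 2.4.6, pandas 2.3.3, scipy 1.17.1 and matplotlib 3.10.9. Genes with adjusted p < 0.05 and a log2 ratio beyond 0.5 in either direction were called. The replicate number pairs the fractions because they come from the same culture, and the correlations of the deviations of same-numbered libraries were 0.156, 0.115, 0.0814 and 0.231. Some differently numbered libraries correlated as well, with 0.171 for nuclear 1 and cytosolic 2 and 0.1 for nuclear 4 and cytosolic 3. On simulated data of 9749 genes for nucleus against cytosol, edgeR called 11 of 100 genes with a simulated log2 change of 1. With a change of 2 it called 76 of 100, and 5 calls were false. Far more genes were called in the measured libraries, with 6718 higher in the nucleus. How often small differences were missed there was not tested. Named genes were, among T counts of 20000 or more, the 10 with the highest mean cytosolic share, the 10 called genes with the smallest and the 10 with the largest ratio and the 10 of the nucleus only class with the highest nuclear share. Genes named for their ratio also had to have the same sign in all 4 replicates. The floor of the classes was taken over genes with a T count of 20000 or more, since over all genes it was near 0 in some libraries. Gene models without a name were passed over, 1 under the first and 1 under the second of these rules, and some genes are not reported here. Genes of the lists, the 11 genes higher in the cytosol and a few others were named after their values were seen. Members and lists were chosen with earlier results of these data known. Alternatives were other tools, filters, floors and exon windows, leaving out replicates, and the fit without the block.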

Additional observations from a re-analysis of the deposited data

Results flagged for a closer look

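Single libraries stood apart from the other 3 of their group by Dixon's criterion, which chance meets in about 1 of 20 groups. Nuclear replicate 4 had 52975732 reads on genes. The share of Myc was 23.2% in nuclear replicate 1, below the others, and that of Fgf4 was 25.3% in cytosolic replicate 1, also below the others. The share of Gna11 was 1.5% and that of Slf1 5.23% in cytosolic replicate 4, both above the others. For 125 genes the ratio of nucleus to cytosol differed between 20 and 40 min in edgeR's interaction test over replicates 3 and 4.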

How the results depend on the processing

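The nuclear excess kept its direction under all settings run, while the counts moved. Genes higher in the nucleus (6718) numbered 4346 in replicates 1 and 2 alone, 3469 of the 3865 genes with a T count of 20000 or more, and 5192 to 6854 without 1 replicate. Genes higher in the cytosol (11) numbered 20 with DESeq2, 17 from a T count of 400, 3 from 20000, 26 with no filter, 61 and 5 in replicates 1 and 2 or 3 and 4 alone, and 99 with limma after each fraction's own floor was subtracted. Without 1 replicate they numbered 5 to 43, with 43 without replicate 3, so that this small group rests on single replicates. Genes above the median ratio (874) numbered 525 from a T count of 20000, 536 over exons within 5 kb of the 3′ end, 471 in replicates 3 and 4 alone and 528 to 731 without 1 replicate, with 528 without replicate 2. Those below it (996) numbered 597 from a T count of 20000 and 704 to 828 without 1 replicate. Genes from a T count of 20000 were centred on their own median gene in this setting. Settings chosen after seeing the data gave 6193 and 8 genes over all exons of the 8456 genes of the 5 kb setting (795 above and 920 below the median ratio), and 7282 and 13 with the cytosolic floor subtracted. The causes were not tested.

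Genes new in the cytosol (1419) numbered 2488 with the floor at the 1st percentile, 779 at 3 times the floor and 3372 from a T count of 2000, and 1498 to 1566 without 1 replicate. Genes new in the nucleus only (28) numbered 0, 3 and 48 in these settings, 114 with the cytosolic floor in both fractions and 42 to 55 without 1 replicate. At 15 min alone 2806 genes were higher in the nucleus and 34 in the cytosol, and at 30 min alone 142 in the cytosol. 

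Without the replicate block the fit gave 6629 genes higher in the nucleus and 15 in the cytosol, 767 above and 1012 below the median ratio, 11 higher in the cytosol at 15 to 40 min, and 84 and 338 genes whose ratio rose and fell from 20 to 40 min. Without the pairing, the mean log2 ratio of the medians of 1.67 had p = 0.0286 in the exact permutation test, and without 1 replicate it was 1.42 to 1.88. Of the named genes, the log2 ratio of Fgf4 was -0.22 to 0.011 without 1 replicate (0.0085 without replicate 1) and 0.19 in replicates 3 and 4 alone, that of Hspa5 0.012 in replicates 3 and 4 alone, and that of Mid1 -0.11 in replicates 1 and 2 alone and -0.0054 with the floor subtracted. Over all named genes and settings, 574 values kept direction and side of the threshold, 105 lost the call, 28 gained one and 6 changed sign. No background without 4sU was measured here, so that how much of a share near the floor is new RNA is unknown.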
